A study of Mus musculus with 18 samples.

Results

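The immunoglobulin kappa light chain locus (Igk) of the mouse was examined for binding of cohesin and of the cohesin loader. Every peak of the 14 deposited lists that touched chr6:67500001-70760000 (mm9) was taken, and peaks sharing at least 1 bp were merged across the lists. This gave 1145 regions from 4159 peaks, of 346850 regions from 1009859 peaks over the 19 autosomes and the X chromosome. The V part, 3.11 Mb that hold nearly all V gene segments, held 1071 of these regions. The last 150 kb, from the final V segments through the J segments, the constant gene and the neighbouring gene Rpia, held the other 74.

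The lists came from chromatin immunoprecipitation and sequencing (ChIP-seq) in a v-Abl transformed pro-B cell line, a B cell precursor line kept dividing by a viral kinase. All cells lacked the JH segments and RAG2, a required subunit of the nuclease of V(D)J joining. They also all expressed dCas9, a Cas9 that binds but does not cut, and an Emu-Bcl2 transgene. All were held in 3 uM STI-571, an inhibitor of the Abl kinase, for 4 days. NIPBL was mapped in 2 libraries with the Sg1 guide RNA (block) and 2 without it (control). RAD21 was mapped in 2 block and 2 control libraries, and, in a separate set, in 3 libraries homozygous for the Ig2b deletion and 3 wild type for it. The labels do not say whether libraries of 1 group came from separate cultures, so p-values measure the spread between libraries, which may be technical, and they do not say whether a genotype was 1 clone. By their names the guide and the deletion were read as elements of the heavy chain locus Igh, on chromosome 12, and not of Igk on chromosome 6, but the labels give neither the guide's sequence nor the ends of the deletion.

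Igk is the first light chain locus that most developing B cells rearrange, and a V segment is joined to a J segment next to the constant gene Igkc. Cohesin, of which RAD21 is a subunit, extrudes chromatin loops until it meets CTCF bound to DNA in the facing direction, and NIPBL loads cohesin and drives extrusion. Between the last V segment and the first J segment lie Cer and Sis, which hold CTCF sites and restrain the use of the nearest V segments. The intronic, 3′ and distal (Ed) kappa enhancers, which raise transcription and joining later in B cell development, lie between the J segments and Igkc and past Igkc.

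The letters below carry the sites that the following results turn on. They were read from mm9 and are written 5′ to 3′ on the strand given, with the 12-base core of the match to a CTCF weight matrix in capitals. The matrix was learned on short RAD21 regions of other chromosomes.
Cer interval, chr6:70659857-70659896, minus strand: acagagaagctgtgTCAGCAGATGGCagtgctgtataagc
Cer interval, chr6:70659450-70659489, minus strand: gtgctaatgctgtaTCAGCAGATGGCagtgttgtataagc
Sis interval, chr6:70664382-70664421, plus strand: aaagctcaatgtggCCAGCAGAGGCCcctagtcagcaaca
Sis interval, chr6:70663292-70663331, plus strand: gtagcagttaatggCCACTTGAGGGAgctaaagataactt
Past the enhancers, chr6:70702641-70702680, minus strand: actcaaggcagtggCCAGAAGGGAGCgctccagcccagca
Rpia intron, chr6:70718933-70718972, minus strand: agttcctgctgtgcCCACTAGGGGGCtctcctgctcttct
Past Rpia, chr6:70748011-70748050, minus strand: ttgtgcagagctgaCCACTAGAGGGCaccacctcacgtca
Right edge, chr6:70754751-70754790, plus strand: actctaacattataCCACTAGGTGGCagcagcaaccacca
Right edge, chr6:70755475-70755514, plus strand: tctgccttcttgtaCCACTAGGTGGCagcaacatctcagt
Right edge, chr6:70756103-70756142, minus strand: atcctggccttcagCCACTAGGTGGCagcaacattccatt
Both Cer cores read the same letters, as do the 3 cores at the right edge. The Cer matches point left, toward the V segments, and the Sis matches point right, toward the J segments, so the 2 intervals point away from each other.

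The lists differed in length before any group was compared. NIPBL lists held 63052 to 123391 peaks and RAD21 lists 44729 to 82688. Depth was unknown, because peak lists hold no read counts, and the value used throughout was the percent of a stretch that lay under a library's peaks. The RAD21 dCas9 lists of replicate number 1 covered 2.67% (block) and 1.62% (control) of the V part, whereas those of number 2 covered 6.20% (block) and 7.59% (control). The names inside the lists also split by that number, so differences within each number are given beside the pooled ones. Among 8 B lineage genes, all had NIPBL in all 4 libraries within 5 kb of the start, and 6 had RAD21 in all 10. The same rule was met by 2 (NIPBL) and 1 (RAD21) of 6 T cell genes and by 3 (NIPBL) and 1 (RAD21) of 6 myeloid genes, beside 51.7% (NIPBL) and 23.4% (RAD21) of 22350 protein-coding genes. Cd3e, part of the T cell receptor complex, and the myeloid gene Ly6g had no peak of either protein. The T cell gene Lck and the myeloid gene Elane had RAD21 in all 10 and NIPBL in all 4 libraries. A peak near a gene is not its expression.

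NIPBL lay in all 4 libraries at 30 Igk regions, and RAD21 in all 10 at 104. For NIPBL this was 26.7 regions per Mb in the last 150 kb and 8.36 per Mb in the V part, beside 8.90 per Mb in the genome. For RAD21 it was 53.3 per Mb in the last 150 kb and 30.9 per Mb in the V part, beside 9.69 per Mb in the genome. The locus was thus denser in constant RAD21 sites than the genome in both parts, and denser in constant NIPBL sites only in the last 150 kb. That NIPBL density rests on 4 regions, among them the promoter of Rpia. Most regions were not constant: 651 of the 1145 (56.9%) appeared in a single list.

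Covered length gave the same order within each library. NIPBL peaks covered 1.61% to 3.38% of the last 150 kb and 0.742% to 1.36% of the V part, and the ratio of the last 150 kb to the V part was 2.17 to 3.40 over the 4 libraries. RAD21 peaks covered 3.76% to 14.7% of the last 150 kb and 1.62% to 7.59% of the V part, a ratio of 1.74 to 2.59 over the 10 libraries. In every library the last 150 kb was the denser part. Set against the same library's covered share of the genome, the V part stood at 0.897 to 1.21 times for NIPBL and at 2.69 to 7.13 times for RAD21.

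**Figure D1:**
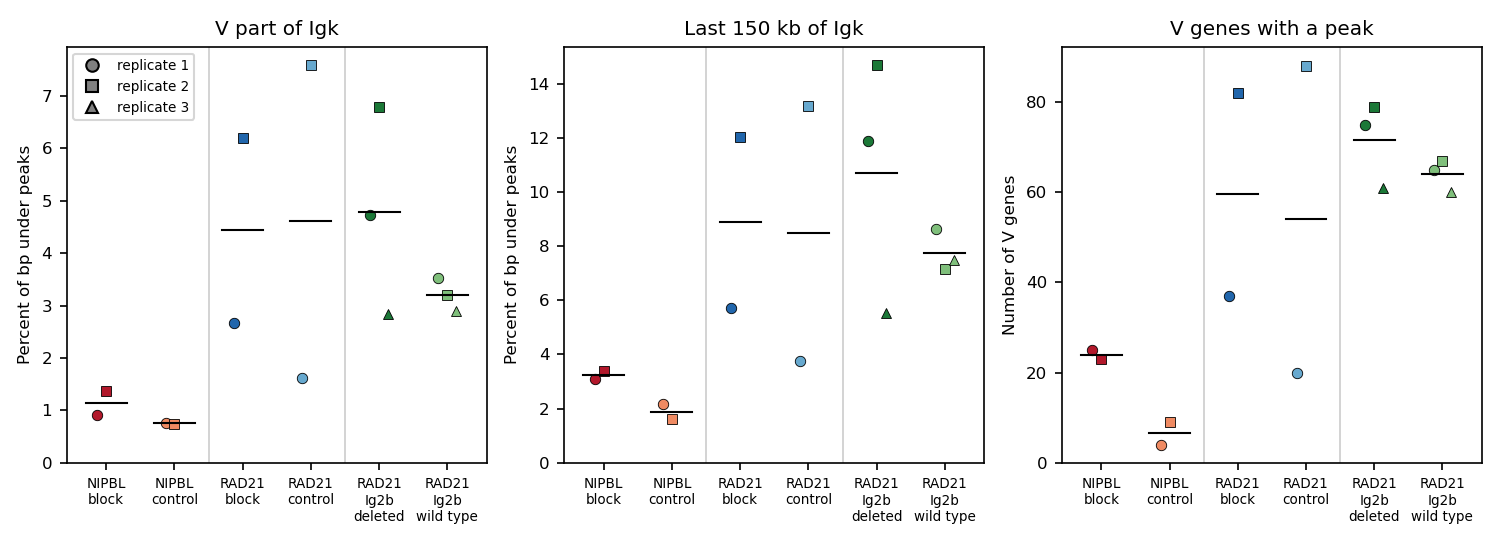
Percent of the Igk V part and of the last 150 kb under called peaks, and the number of V genes with a peak, with 1 point for each library, the marker giving the replicate number, and the mean of each group as a horizontal line. The last 150 kb lies above the V part in all 14 libraries, and the RAD21 dCas9 points of 1 group lie far apart.

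By fold over background, the strongest RAD21 sites of the last 150 kb stood at Cer, at Sis and at 2 places past the enhancers. The Cer interval site, chr6:70657750-70660570, lies between Igkv3-1 and Igkj1, 13.4 kb before Igkj1. The fold over background of a peak, the authors' own value and not on 1 scale across lists, was 4.35 and 2.82 in NIPBL block and 2.93 and 3.58 in NIPBL control libraries. For RAD21 it was 11.8 and 18.2 in RAD21 block, 11.7 and 17.3 in RAD21 control, 16.2, 14.5 and 15.2 in Ig2b-deleted and 14, 13.1 and 12.0 in wild-type libraries. It was the only region of the last 150 kb present in all 14 lists, and its median rank was in the top 1.19% of RAD21 peaks. All 3 deleted folds were above all 3 wild-type folds at Cer, while block and control folds overlapped.

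The Sis interval site, chr6:70662874-70664862, lies 8.7 kb before Igkj1. NIPBL was called there in 3 of 4 libraries, all but block library 2. The RAD21 fold was 10.8 and 14.4 in block, 9.64 and 12.9 in control, 11.6, 14.4 and 12.8 in deleted and 13.3, 10.5 and 10.8 in wild-type libraries. Deleted and wild-type libraries overlapped at Sis, as block and control libraries did.

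Past the constant gene, the site at chr6:70701613-70703486, 30.0 kb after Igkj1 and 24862 bp past Igkc, had a RAD21 fold of 12.4 and 13.3 in block, 12.7 and 18.1 in control, 14.6, 14 and 16.9 in deleted and 12.5, 14.8 and 12.3 in wild-type libraries. Its median rank, in the top 0.883%, was the best of the last 150 kb. NIPBL was called in 3 libraries. The site in an intron of Rpia, which encodes ribose 5-phosphate isomerase of the pentose phosphate pathway, lies at chr6:70718507-70719207. NIPBL was called there in 3 libraries. The RAD21 fold was 13.7 and 17.9 in block, 10.1 and 18.8 in control, 13.1, 13.2 and 17.9 in deleted and 12.3, 12.4 and 12.0 in wild-type libraries, with a median of 13.1. Deleted and wild-type folds did not overlap at the Rpia intron, but did at the +30 kb site. At both of these sites the CTCF match reads on the minus strand, facing back toward Igkc and the V segments.

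The Cer, +30 kb and Rpia intron sites were called in all 10 RAD21 lists with folds above 10, as was Sis apart from a value of 9.64 in RAD21 control library 1. The other constant RAD21 sites of the last 150 kb were weaker. Past Rpia, chr6:70747743-70748279 had a median fold of 7.65 and chr6:70754390-70756281, with the 3 like cores, 7.28. At the left, Igkv3-1, the V segment nearest to the J segments, lay under chr6:70652028-70654291 with a median fold of 4.52. The region chr6:70618162-70619316, between Gm16774 and Igkv3-4, had 3.84. NIPBL was called at neither of the last 2 in any library.

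**Figure D2:**
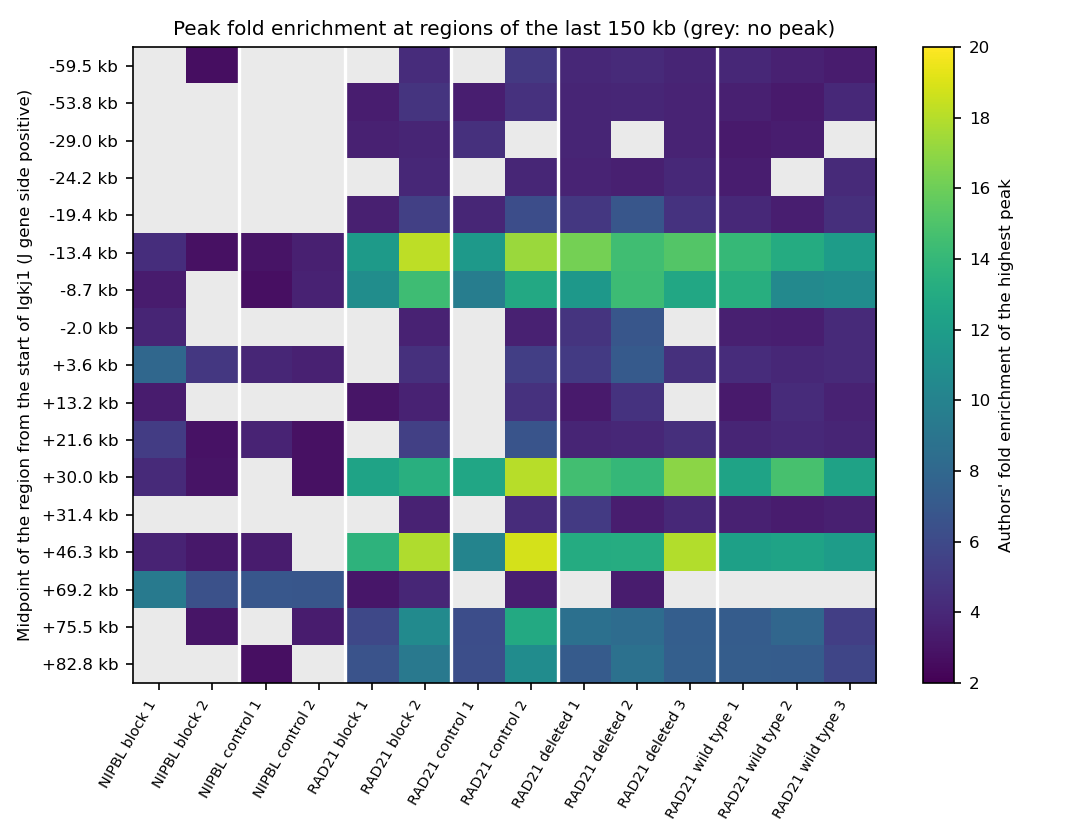
Heat map of the authors' fold at the regions of the last 150 kb that were constant or in 7 to 9 RAD21 libraries, with 1 row per region by its distance from Igkj1 in kb, 1 column per library and grey where no peak was called. RAD21 folds reach their highest values at Cer, Sis, +30 kb and the Rpia intron, and NIPBL folds at the Rpia promoter and at the J-to-Igkc region.

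RAD21 folds at the enhancers were lower, and RAD21 was not called there in all 10 libraries. The region chr6:70673533-70678768 runs over Igkj4, Igkj5 and Igkc and holds the intronic enhancer in its J-to-C intron. NIPBL was present there in all 4 libraries, covering 399 and 801 bp with folds of 8.00 and 4.92 in block and 422 and 195 bp with folds of 3.97 and 3.65 in control. NIPBL fold was thus higher in both block libraries than in either control library, while covered length overlapped. RAD21 was absent from both dCas9 lists of replicate number 1. In the other 8, RAD21 covered 1635 bp in block, 2636 bp in control, 4326, 4838 and 761 bp in deleted and 2788, 2376 and 3079 bp in wild-type libraries.

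Cer, Sis and the enhancers are not annotated in the reference and were placed here by their known positions between annotated genes. The letters below lie at the places of the intronic and 3′ enhancers, with a kappaB word and then a PU.1-IRF4 word in capitals, as read from mm9.
Intronic enhancer, chr6:70675730-70675778, plus strand: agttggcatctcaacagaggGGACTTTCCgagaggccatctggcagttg
3′ enhancer, chr6:70685681-70685729, plus strand: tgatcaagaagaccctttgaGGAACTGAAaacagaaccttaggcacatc
The kappaB word GGACTTTCC was present, on either strand, in 0.294% of 600 bp windows of the locus, and the PU.1-IRF4 word GGAACTGAA in 1.10%. Neither word was particular to these places. In the last 150 kb the kappaB word also lay in the +30 kb region and at 2 places under no peak, and the PU.1-IRF4 word also in the Cer region and in the J-to-Igkc region. NF-kappaB acts through the first in activated B lineage cells, and PU.1 recruits IRF4 or IRF8 through the second.

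The 3′ enhancer region, chr6:70685430-70686064, 8679 bp past Igkc, had NIPBL only in block library 1 and RAD21 in 8 libraries with a median fold of 3.74. The region chr6:70693731-70694508, 16980 bp past Igkc, where Ed is placed, had NIPBL in all 4, at 5.17 and 2.88 in block and 3.81 and 2.78 in control, and RAD21 in 8 libraries with a median fold of 4.04. Around Igkj1, chr6:70668337-70672767 had NIPBL in 1 library and RAD21 in 7 with a median fold of 3.73. The 3′ enhancer and Igkj1 regions, present in 7 to 9 RAD21 libraries, were picked after their values were seen. At the J segments and all 3 enhancers RAD21 folds therefore stayed well under those of Cer and Sis. Covered length gave another order in the Ig2b set. The 10 kb window over the J segments and Igkc averaged 5129 bp in deleted and 4068 bp in wild-type libraries. The Cer window, starting at 70650001, averaged 3300 and 2370 bp, and the Sis window, starting at 70660001, 2244 and 1694 bp. Neither window is its element alone. The Cer window also holds the Igkv3-1 region and lacks the end of the Cer region. The Sis window holds that end and part of the Igkj1 region. Deleted library 3 went the other way, at 852 bp in the J-to-Igkc window against 2330 bp in the Cer window. Both dCas9 lists of number 1 held 0 bp in the J-to-Igkc window. Those of number 2 held 2689 bp (block) and 4177 bp (control), against 3165 and 3297 bp in the Cer window.

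The promoter of Rpia showed the reverse order of the 2 proteins. At chr6:70740986-70742535, NIPBL had a fold of 9.44 and 6.43 in block and 6.89 and 6.84 in control, in the top 2.29% of NIPBL peaks by median rank. RAD21 was called in only 4 of 10 libraries, with folds of 3.08 to 3.91. Of the named regions of the last 150 kb it had the highest NIPBL fold in each of the 4 libraries. The 10 kb window that starts there, at 70740001, did not pass the test of NIPBL against RAD21 coverage (log2 difference 0.15, adjusted p = 0.692, limma). That window also holds the constant RAD21 site chr6:70747743-70748279, so its value is not that of the promoter alone.

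In the V part, the constant RAD21 sites were spread along the whole array. The 104 constant sites of the locus lay a median of 23992 bp apart, with gaps of 54 to 170555 bp, and had a median length of 1325.5 bp. Median fold was 9.93, with a range of 3.84 to 14.3, over the 8 sites of the last 150 kb and 5.85, range 3.78 to 13.6, over those of the V part. By bins of 200 kb, mean NIPBL coverage was highest in the most distal bin, chr6:67500001-67700000, at 2.64%. Mean RAD21 coverage ran between 2.16% and 7.70%, and the highest bin was chr6:68100001-68300000, at 4.24% to 13.5% over the 10 libraries.

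The 10 V part sites with the best RAD21 ranks included some with like CTCF matches. The first, chr6:69682188-69683783 between Igkv5-48 and Igkv12-47, had a RAD21 fold of 13.2 and 15.0 in block, 11.8 and 16.3 in control, 14.7, 12.9 and 15.3 in deleted and 12.6, 14 and 10.9 in wild-type libraries, a median of 13.6 in the top 1.48%. The groups overlapped, and NIPBL was called in 3 of 4 libraries. Its CTCF match and those of chr6:69708327-69709202 (median fold 10.4) and chr6:69778412-69779440 (9.78) are shown next because their cores are the same. Outside the core the first and second differ by few letters, while the third differs from both in most letters at its right end. A distal pair is shown because it is identical over the letters given.
Igkv5-48 to Igkv12-47, chr6:69683046-69683085, minus strand: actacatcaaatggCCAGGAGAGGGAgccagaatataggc
Igkv12-47 to Igkv12-46, chr6:69708798-69708837, minus strand: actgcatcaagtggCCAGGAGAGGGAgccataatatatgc
Igkv5-43 to Igkv12-41, chr6:69778817-69778856, minus strand: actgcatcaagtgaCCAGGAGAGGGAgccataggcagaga
Igkv9-129 to Igkv17-127, chr6:67808125-67808164, plus strand: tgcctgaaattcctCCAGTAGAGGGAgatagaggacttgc
Past Igkv1-122, chr6:67983788-67983827, plus strand: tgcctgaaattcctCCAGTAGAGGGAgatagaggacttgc
The distal pair had median RAD21 folds of 11.1 and 11.0. Each member of that pair stands near a segment of the Igkv17 family, at 2066 bp in the first case and 1959 bp in the second. How reads were shared between copies by the authors' alignment is not given in the sources used here.

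The other 5 of these 10 sites had median folds of 10.6 to 12.0. They were chr6:68617192-68619381 between Igkv10-96 and Igkv10-95 (12.0, with NIPBL in all 4 libraries), chr6:67762258-67763268 (11.2), chr6:68457353-68458726 (11.1), chr6:68051913-68053474 (11.0) and chr6:68887662-68891086 over Igkv13-84 (10.6). Only the last of the 10 overlapped an annotated gene.

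CTCF matches marked the better-ranked constant RAD21 sites. The weight matrix, chosen after the data were seen, matched 58 of the 104 sites (55.8%), 6 of 8 in the last 150 kb and 52 of 96 in the V part. It matched 40 of the 52 better-ranked sites and 18 of the 52 others. Of locus windows of like length without RAD21, 5.02% held a match. Regions with RAD21 in 2 to 9 libraries stood at 6.46% and those in 1 at 1.31%, but these were shorter, with a median of 430 bp and 127 bp against 1325.5 bp for constant sites, and the part of length was not tested. All locus windows of the constant sites' length stood at 7.72%, and constant regions over 1 kb on other chromosomes at 64.7%. A plain core word (CC, any 3 bases, AGG, any base, GGC, either strand) was found in only 11 of the 104 sites (10.6%) and in 1.63% of locus windows. The core word was also in 4 of the 15 regions with NIPBL in all 4 libraries and RAD21 in none (26.7%). Some of the 104 sites therefore had no match by either search, which says only that these letters are not there.

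**Figure D3:**
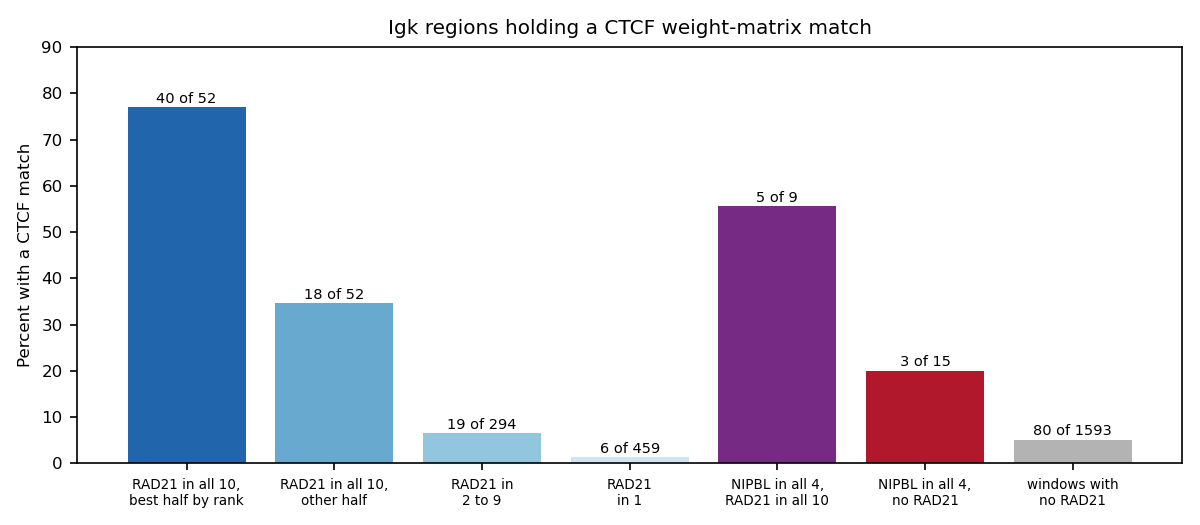
Percent of Igk regions with a match to the CTCF weight matrix, as bars for classes of regions by the libraries that called them, beside windows of the locus without RAD21, with counts above the bars. The better-ranked constant RAD21 sites stand highest, at 40 of 52, and regions in 1 RAD21 library, which are also the shortest, lowest, at 6 of 459.

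The strand of the matches followed that of the V segments along the array. V segments join by deletion or by inversion depending on their strand, and the array holds both kinds. In chr6:67500001-68500000, 14 matches within constant sites lay on the plus and 3 on the minus strand, and 23 V genes on the plus and 4 on the minus strand. In chr6:68500001-69500000 the matches were 4 plus and 15 minus and the genes 3 plus and 27 minus. In chr6:69500001-70500000 the matches were 5 plus and 12 minus and the genes 5 plus and 32 minus. The majority strand of both was thus plus in the distal Mb and minus in the next 2, a description without a test, since copies duplicated with their genes share strand.

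**Figure D4:**
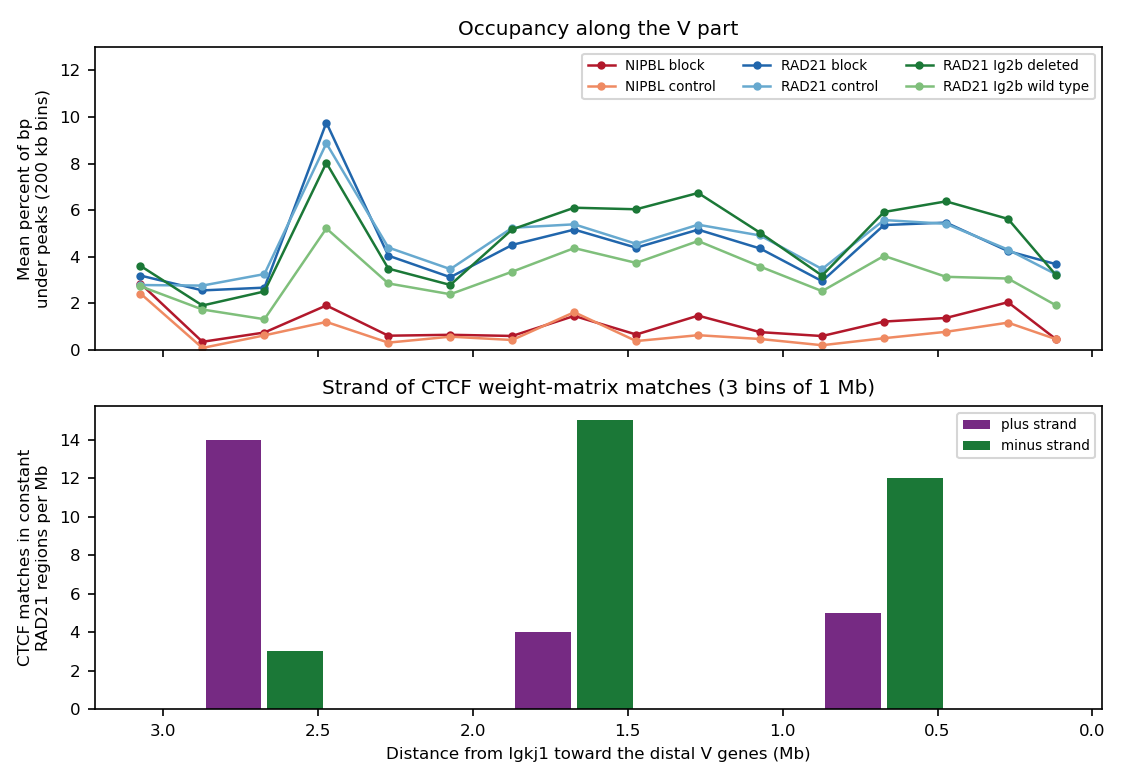
Top, mean percent of bp under peaks in 200 kb bins of the V part for each of the 6 groups, by distance from Igkj1 in Mb with the distal end at left. Bottom, CTCF matches within constant RAD21 sites on the plus and minus strand in 3 bins of 1 Mb. RAD21 is highest in the bin with a mean of 7.70%, and the majority strand is plus in the distal Mb, with 14 against 3, and minus in the others.

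RAD21 also lay on the V segments themselves. Of 102 annotated V genes, taken from 500 bp before the start to the end, 69 (67.6%) had RAD21 in 6 or more libraries and 15 (14.7%) in all 10. In stretches of the same length tiled along the locus the shares were 11.5% and 4.15%. Some NIPBL peak was on 40 V genes (39.2%), against 13.6% of tiles. The 15 were Igkv2-137, Igkv17-127, Igkv2-112, Igkv15-103, Igkv10-95, Igkv4-81, Igkv4-79, Igkv4-68, Igkv4-59, Igkv4-58, Igkv4-57, Igkv7-33, Igkv6-32, Igkv3-7 and Igkv3-1, from the distal to the proximal end. No RAD21 peak in any library was on 10 V genes, of which Igkv1-131, Igkv1-115, Igkv1-99 and Igkv1-88 belong to the Igkv1 family. Without the dCas9 libraries of number 1 or of number 2, the count of 69 became 60 to 72.

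By family, all 9 Igkv6 genes and 8 of 9 Igkv8 genes had RAD21 in 6 or more libraries. The Igkv4 family, the most numerous, had 18 of 26. Igkv1 had 4 of 11 and Igkv12 had 2 of 7. V genes with RAD21 in 6 or more libraries were richer in sequence repeated within the locus, with a median of 45.1% of their 36-base words found elsewhere in it, against 16.6% for the other V genes. The part of shared reads in these counts was not tested.

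Along a V gene, RAD21 peaks were most frequent at the start and at the end. Averaged over the 10 libraries, 35.6% of V genes lay under a peak at their start, 22.4% at 200 bp into the gene and 41.5% at the end, where the recombination signal sequence is. The end value ran from 9.80% to 74.5% between libraries. At 1500 bp before the start the share was 6.57%, and at 1500 bp past the end 3.33%. Peaks were thus bounded by the gene and its flanks.

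**Figure D5:**
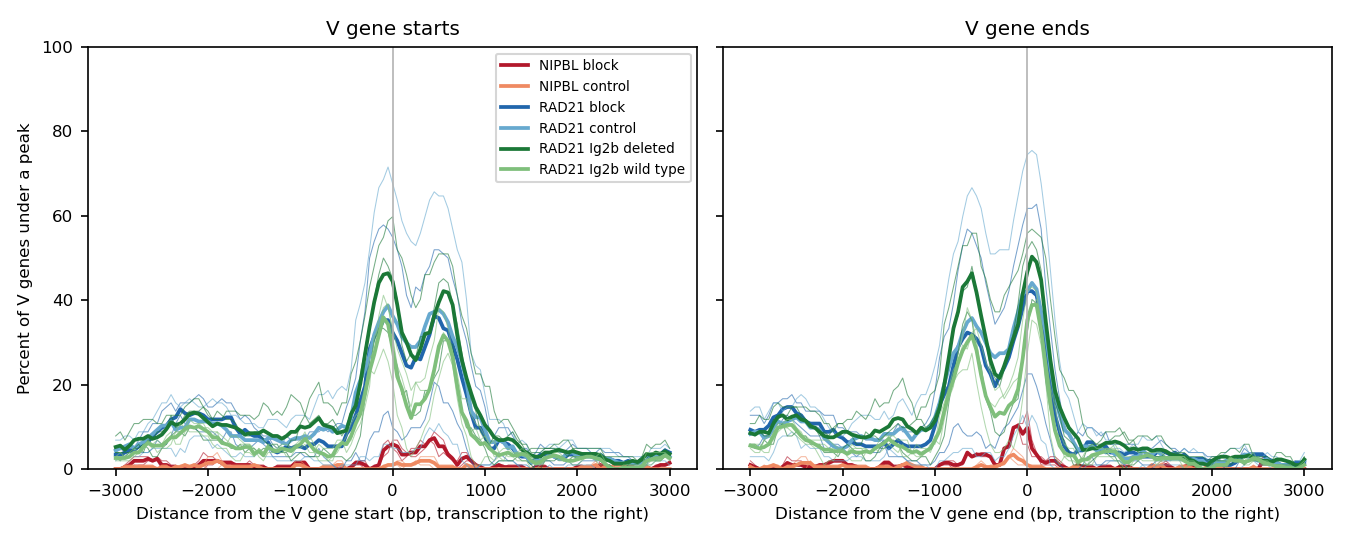
Percent of the 102 V genes under a peak by distance in bp from the annotated start (left) and end (right), with transcription to the right, thin lines for libraries and thick lines for group means. All 4 RAD21 group means are highest near the start and the end with a dip between, and the NIPBL block mean lies above the NIPBL control mean within the gene.

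At those ends, 85 of the 102 V genes carried the consensus heptamer CACAGTG of the recombination signal, which 0.298% of windows of the locus of the same length and strand held. The octamer ATGCAAAT of V promoters, bound by the factors Oct1 and Oct2, lay within 300 bp before the start of 64 (62.7%), against 4.91% of windows. The ends of the V gene nearest to the J segments and of a further proximal one, both under RAD21 peaks in all 10 libraries, show the heptamer in capitals.
Igkv3-1 end, chr6:70654142-70654208, plus strand: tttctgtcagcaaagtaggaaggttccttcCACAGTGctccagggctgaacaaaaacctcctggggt
Igkv3-7 end, chr6:70558001-70558067, plus strand: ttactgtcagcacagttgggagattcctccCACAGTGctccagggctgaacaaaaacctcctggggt
The heptamer was found in 61 of the 69 genes with RAD21 in 6 or more libraries, so 8 genes had RAD21 without these letters there.

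NIPBL and RAD21 shared part of their constant sites. NIPBL in any library was found at 51 of the 104 constant RAD21 sites (49.0%), and at 42.6% of such sites in the genome. Of the 30 constant NIPBL sites, 9 (30%) were constant RAD21 sites, and 19.4% in the genome. The site at chr6:70236892-70240076, past Igkv6-23, was the best-ranked NIPBL region of the V part that is also constant for RAD21. Its NIPBL fold was 7.64 and 4.17 in block and 3.99 and 2.78 in control, and its RAD21 median was 8.34. At chr6:68191635-68194438, between Igkv2-112 and Igkv14-111, NIPBL fold was 6.72 and 5.73 in block and 3.88 and 3.14 in control, with a RAD21 median of 4.76. Both block libraries were above both control libraries at these 2 sites.

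NIPBL was constant without RAD21 in any library at 15 regions, all in the V part. Their median GC content was 60.9%, against 37.7% for constant RAD21 sites and 38.9% for the locus, and their median NIPBL folds were modest, at 2.83 to 4.01. The strongest by rank was short, chr6:67961895-67961979 beside Igkv1-122, with folds of 4.39 and 3.62 in block and 3.63 and 4.76 in control. The longest, chr6:67532250-67533542 between Igkv2-137 and Igkv1-135, had 3.84 and 3.72 in block and 3.70 and 3.64 in control. Block and control libraries overlapped at both.

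These 15 regions were in part copies of each other. A median of 56.3% of their 36-base words recurred within the locus, against 24.4% for constant RAD21 sites, and 11 of the 15 shared at least 10% of their 15-base words with another of the set, as did 62 of the 104 constant RAD21 sites among themselves. The longest exact stretch, 217 bp, joins the longest region with one 2.94 Mb away, and 100 bases of it are given to show its composition (68% GC).
NIPBL-only repeat, chr6:67532821-67532920 plus strand and chr6:70474453-70474552 minus strand: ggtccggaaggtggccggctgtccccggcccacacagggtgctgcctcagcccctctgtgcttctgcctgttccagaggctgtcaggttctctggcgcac
Between these 15 regions and constant RAD21 sites, higher GC content and more repeats went with the absence of RAD21. Between V genes, more repeats went with RAD21 in 6 or more libraries (medians of 45.1% against 16.6%). The part of GC content and repeats in these NIPBL calls was not tested.

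Set against RAD21 in the same dCas9 cells, NIPBL covered less of Igk. NIPBL peaks covered 0.944% ± 0.288 of the V part and RAD21 peaks 4.52% ± 2.84 (SD, n = 4 each), a difference of -3.58 percentage points. In the last 150 kb NIPBL covered 2.55% ± 0.815 and RAD21 8.67% ± 4.64 (SD, n = 4 each), a difference of -6.12. Neither pair of ranges overlapped. Both gave p = 0.0286 in the exact two-sided permutation test, the smallest that 4 against 4 libraries allow. The differences were -1.31 and -5.85 within replicate numbers 1 and 2 for the V part, and -2.12 and -10.1 for the last 150 kb. Without any 1 of the 4 NIPBL libraries p was 0.0857 or 0.114 in both parts, and with libraries exchanged only within replicate numbers it was 0.0556. Antibody and protein cannot be told apart here.

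Of the NIPBL-covered length in Igk, 11.6% ± 1.96 lay in the last 150 kb, and of the RAD21-covered length 8.93% ± 1.01 (SD, n = 4 each). The difference of 2.62 points did not pass the exact two-sided permutation test (p = 0.0571, smallest possible 0.0286), and the ranges overlapped.

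Window by window, NIPBL coverage was lower than RAD21 coverage in most of the Igk windows tested. In limma on log2(covered bp + 500) over 13452 windows of 10 kb, 41 of 59 Igk windows passed an adjusted p of 0.05, 3 with NIPBL higher and 38 with NIPBL lower. Over all windows 23.3% were called higher and 27.0% lower. The median difference was -1.45 over Igk windows and 0.02 over all. Windows were tested if the mean over both proteins was at least 500 bp, so some entered through RAD21 alone and could only be lower. Without that filter 280 Igk windows were tested, with 12 called higher and 73 lower. Of all 136950 windows, 11901 were then called higher and 21187 lower. The medians without the filter were -0.456 over Igk windows and 0.051 over all. The 3 higher windows started at 67530001 (log2 difference 1.51, SE 0.24, adjusted p = 0.00117, limma), 67570001 (1.21) and 68980001 (0.74), and the first 2 hold NIPBL-only repeats. The 5 most certain lower windows started at 70750001 (-2.06, SE 0.17, adjusted p = 0.000152, limma), 70550001 (-2.17), 68880001 (-2.45), 67800001 (-1.66) and 69390001 (-1.82).

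The last 150 kb was not uniform in this respect. The window at the right edge, starting at 70750001, held 0 and 0 bp of NIPBL peaks in block and 138 and 0 bp in control, but 1869 and 1721 bp of RAD21 peaks in block and 1638 and 1642 bp in control. In the Cer window the log2 difference was -1.45 (adjusted p = 0.00197, limma) and in the Sis window -1.40 (adjusted p = 0.00672, limma). These values are not those of the elements alone. The Cer window also holds the Igkv3-1 region, with RAD21 in all 10 libraries and NIPBL in none, and the Sis window part of the Cer and Igkj1 regions. The window over the J segments and Igkc, with a difference of -0.52, missed the threshold (adjusted p = 0.599, limma), as did the one at the +30 kb site at -0.70 (adjusted p = 0.191, limma). By presence, 15 of 899 regions were in all 4 NIPBL and no RAD21 library (2.91% in the genome), and 69 in all 4 RAD21 and no NIPBL library (7.53% in the genome), 66 of them in the V part.

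With the Sg1 guide, NIPBL peaks covered more of Igk than in control cells, though 2 against 2 libraries cannot reach significance. In the V part block libraries stood at 0.905% and 1.36% and control libraries at 0.766% and 0.742%. The means were 1.13% ± 0.323 in block and 0.754% ± 0.0168 in control (SD, n = 2 each), with p = 0.333 in the exact two-sided permutation test, the smallest it allows. In the last 150 kb block stood at 3.07% and 3.38% and control at 2.16% and 1.61%, a difference of 1.34 points with the same exact p of 0.333. The groups did not overlap in either part, and the differences within replicate numbers were 0.139 and 0.620 in the V part and 0.918 and 1.76 in the last 150 kb.

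More V genes carried NIPBL in block than in control libraries. A NIPBL peak lay on 25 and 23 of the 102 V genes in block and on 4 and 9 in control, a difference of 17.5 (exact two-sided permutation p = 0.333, the smallest possible). The lists covered 20.3 and 29.8 Mb of the genome in block and 22.5 and 21.6 Mb in control. The share of other stretches of the locus with a NIPBL peak is not given per library, so whether the difference is particular to V genes was not tested. With lists matched in length the counts were 25 and 12 in block and 2 and 6 in control. At the stricter peak threshold, a −log10 q of at least 3, they fell to 2 and 1 in block and 0 and 0 in control. In both block libraries 10 V genes were marked, of which 5 were marked in no control library. The comparison over V genes was chosen after the data were seen.

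For coverage by class, V genes of the V part were taken from 500 bp before the start to 300 bp past the end. Constant RAD21 sites within these stretches were counted as V genes. NIPBL covered 3.44% ± 0.637 of the V genes in block and 0.733% ± 0.198 in control (SD, n = 2 each). Of constant RAD21 sites without a CTCF match it covered 7.34% ± 0.0637 in block and 2.43% ± 0.719 in control (SD, n = 2 each). At constant RAD21 sites with a match it covered 3.95% in block and 2.72% in control, and in the remaining V part 0.858% ± 0.373 in block and 0.677% ± 0.0117 in control. In that remainder block library 1, at 0.594%, lay below both control libraries, at 0.685% and 0.668%, and block library 2, at 1.12%, above them. All of these were set after the data were seen and carry no test.

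No 10 kb window of Igk was called for NIPBL between block and control. Of 15 Igk windows tested 0 passed in limma, as did 0.0% of 14652 in either direction. An unadjusted p under 0.05 was found in 3 of the 15, all higher in block, and in 1501 of the 14652 windows of the genome. Of the 15 windows 8 were higher and 7 lower in block. Igk windows had a median log2 difference of 0.29 and all windows of 0.12. Without NIPBL block library 2 the Igk median turned to -0.27, with 4 windows higher and 7 lower. By presence, 13 of 434 Igk regions were in both block and no control library (2.48% in the genome) and 10 in both control and no block library (1.65% in the genome). The longest gained were chr6:69443725-69444337, chr6:69752916-69753368, chr6:69075803-69076223, chr6:70702353-70702759 at the +30 kb site and chr6:68052432-68052822. For such counts peaks were merged anew over the compared lists only. The piece gained at the +30 kb site is thus shorter than the whole site, where NIPBL was called in 3 libraries. The longest lost were chr6:68088488-68089317, chr6:67570436-67571083, chr6:68920445-68920840, chr6:68238290-68238658 and chr6:68564432-68564716. The Igk shares, 3% for gained and 2.3% for lost, were near the genome's.

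For RAD21 the same guide gave no difference beyond the spread. Block libraries covered 2.67% and 6.20% of the V part and control libraries 1.62% and 7.59%, means of 4.44% ± 2.50 in block and 4.60% ± 4.22 in control (SD, n = 2 each, exact two-sided permutation p = 1, smallest possible 0.333). In the last 150 kb block stood at 5.72% and 12.0% and control at 3.76% and 13.2%, a difference of 0.40 (exact two-sided permutation p = 1). Within replicate number 1 block was above control, by 1.05 in the V part and 1.96 in the last 150 kb, and within number 2 it was below, by -1.39 and -1.16. V genes with a peak numbered 37 and 82 in block and 20 and 88 in control.

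Of 103 Igk windows tested for RAD21 between block and control, 0 passed in limma, as did 0.0% of 16780 windows in either direction. An unadjusted p under 0.05 was found in 0 of the 103 and in 3 of the 16780. Igk windows were higher in block at 64 and lower at 39, which became 41 and 62 after quantile scaling. The regions gained in both block libraries were 5 of 601 (1.15% in the genome), and 0 were lost (0.278% in the genome). They were short, and included chr6:70657178-70657469 beside the Cer site, with 59 and 292 bp in block. The others were chr6:68017757-68017999, chr6:68197198-68197422, chr6:69576336-69576551 and chr6:68887266-68887336.

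In Ig2b-deleted cells RAD21 coverage of Igk was higher on average than in wild type, without passing a test. The V part was at 4.73%, 6.78% and 2.83% in deleted and 3.52%, 3.21% and 2.89% in wild-type libraries, means of 4.78% ± 1.98 in deleted and 3.20% ± 0.316 in wild type (SD, n = 3 each, exact two-sided permutation p = 0.4, smallest possible 0.1). The last 150 kb was at 11.9%, 14.7% and 5.52% in deleted and 8.65%, 7.16% and 7.48% in wild-type libraries, a difference of 2.94 (exact two-sided permutation p = 0.4). Deleted library 3, whose list was the shortest of the 6, was the lowest of them in both parts, so the groups overlapped. Coverage of the genome moved alike, at 18.2, 25.1 and 11.9 Mb in deleted and 14.2, 15.2 and 11.6 Mb in wild-type libraries. Divided by it, the difference in the last 150 kb turned to -0.196, and that in the V part stayed positive at 0.528 (exact two-sided permutation p = 0.8 and 0.3). At a −log10 q of at least 3 the difference was 5.53 points in the last 150 kb and 1.22 in the V part, each with an exact p of 0.1, the smallest possible.

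The same held by window and by V gene. Of 99 Igk windows 0 passed in limma, as did 0.0% of 8119 in either direction. An unadjusted p under 0.05 was found in 14 of the 99, all higher in deleted cells, and in 897 of the 8119 windows of the genome. In 92 of the 99 the difference was positive, with a median of 0.33 against 0.23 over all windows. After quantile scaling 61 were positive and 38 negative, with medians of 0.06 in Igk and -0.02 over all. A RAD21 peak lay on 75, 79 and 61 V genes in deleted and on 65, 67 and 60 in wild-type libraries (exact two-sided permutation p = 0.3). At a −log10 q of at least 3 these were 28, 37 and 29 in deleted and 13, 8 and 12 in wild type, which did not overlap (exact two-sided permutation p = 0.1, the smallest possible). With lists matched in length they were 68, 64 and 61 in deleted and 62, 60 and 58 in wild type, which overlapped. By presence, 2 of 710 regions were gained (0.931% in the genome) and 0 lost (0.191% in the genome). Both gained regions, chr6:69085226-69085716 and chr6:69046591-69046921, lie between Igkv4-78 and Igkv4-74.

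The V array of Igk carried less RAD21 than that of Igh. Over the 10 RAD21 libraries the Igk V part was covered at 4.20% ± 2.01 and the Igh VH part, from the first to the last Ighv gene on chromosome 12, at 6.45% ± 2.22 (SD, n = 10 each). The mean log2 ratio was -0.68, a ratio of 0.623, with p = 0.0293 in the exact two-sided sign-flip permutation test over libraries. Igk was lower in 9 of 10. The exception was RAD21 block library 2, with 6.20% in the Igk V part and 2.52% in the Igh VH part. Without that library the log2 ratio was -0.90 (exact permutation p = 0.0039). Without any 1 of 8 other libraries p passed 0.05, at 0.0508 to 0.0586, and without RAD21 control library 2 it was 0.0313. The ratio of Igk to Igh was 0.401 (block) and 0.289 (control) in replicate number 1, 2.47 (block) and 0.898 (control) in number 2, and 0.529 to 0.635 in the Ig2b set. For NIPBL the ratio of Igk to Igh was above 1 in each library, at 1.36 and 1.49 in block and 1.50 and 1.44 in control.

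Of 12 genes for factors that act on Igk, 12 had NIPBL in all 4 libraries within 5 kb of the start and 9 had RAD21 in all 10, beside 51.7% (NIPBL) and 23.4% (RAD21) of all protein-coding genes. Irf8 and Pax5 were among the 9, whereas Irf4 and Sfpi1, which encodes PU.1, had RAD21 in 8 libraries each.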

How the data were processed

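The submitters' processing notes name Bowtie2 2.2.8, SAMtools 1.8 and MACS2 (its version is not given in the sources used here) and the mouse build mm9. The authors called broad peaks per library. Each deposited peak has a fold over background (a ratio), a −log10 p, a −log10 q and a score. The authors' score was not used. Per the names in the deposited lists, the dCas9 lists were called with a control and the Ig2b lists without duplicates. The 4 inputs have no list here.

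Peaks on the 20 chromosomes were merged where they shared 1 bp. Covered length per library was compared by exact permutation tests, and covered bp per 10 kb window (mean of at least 500) with limma 3.58.1 in R 4.3.3 on log2(bp + 500), Benjamini-Hochberg adjusted over all windows, with a block-or-control term in the NIPBL against RAD21 fit. The limma step was checked on simulated data with the same spread in every window and large changes. Real windows were less even in spread, so this check does not give the power of the fits that called no window. Genes came from the mm9 annotation given with the reference. Python 3.11.15, numpy 2.4.6 and pandas 2.3.3 were used. Regions were named by a rule: the constant ones of the last 150 kb, the 10 best-ranked RAD21 and NIPBL sites of the V part, and up to 5 gained or lost per comparison. The members and lists were chosen with earlier results of these data known.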

Additional observations from a re-analysis of the deposited data

How the results depend on the processing

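Peak calling sets every value here, since depth is unknown and a peak under the authors' threshold counts as 0. Replicate numbers were not taken to pair libraries: same-numbered libraries deviated together in the RAD21 dCas9 set (r = 0.79 over windows) and in the NIPBL set (r = 0.21), but in the Ig2b set only at 0.05, 0.15 and 0.21. With the replicate block, NIPBL minus RAD21 remained -3.58 in the V part and -6.12 in the last 150 kb, with an exact permutation p of 0.0556 in each, and 50 Igk windows were called in place of 41. No window of the other 3 comparisons was called with the block in Igk.

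The share of Igk coverage in the last 150 kb passed its test (exact permutation p = 0.0286) at a −log10 q of at least 3 (NIPBL minus RAD21 23.4 points), with lists matched in length (3.53) and with the border 25 kb nearer to the constant gene (2.72). Deleted minus wild type in the last 150 kb turned to -0.196 when divided by genome coverage. Without the filter on low windows, 85 of 280 Igk windows were called between NIPBL and RAD21, 12 with NIPBL higher and 73 lower. Regions gained or lost numbered 8 (RAD21 block, 50% covered), 1 (RAD21 block, −log10 q of at least 3), 3 (NIPBL block, −log10 q of at least 3), 12 and 8 (Ig2b, 50% covered and −log10 q of at least 3) and 21 (NIPBL against RAD21, 50% covered). The weight matrix found CTCF letters in 58 sites and the core in 11. RAD21 block minus control in V genes turned from 5.5 to -10 at a −log10 q of at least 3 and -5.5 with lists matched in length. The cause was not tested. In 92 further recomputations under another setting the result kept its direction and its side of the threshold, or its count stayed within 1.5 times.

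Leaving out 1 library gave, for RAD21 block minus control, -3.15 to 2.82 in the V part, -4.32 to 5.12 in the last 150 kb, 56 to 135 regions and -28.5 to 39.5 V genes. For NIPBL block minus control it gave 0.151 to 0.608, 1.07 to 1.61, 80 to 152 regions and 15 to 20 V genes. For Ig2b it gave 0.574 to 2.55, 0.938 to 5.53, 4 to 24 regions and 4 to 13 V genes. For NIPBL minus RAD21 it gave -4.55 to -2.55, -7.76 to -4.61, 1.78 to 3.31 for the share, 31 to 56 windows and 87 to 115 regions. The Igk to Igh log2 ratio ran from -0.90 to -0.56. Counts rose where a group was left with 1 library because fewer lists had to share a region.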
